A study of Mus musculus with 24 samples.

Results

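The proximal miRNA block of the imprinted Dlk1-Dio3 domain is the stretch of mouse chromosome 12 that runs from the long non-coding RNA gene Meg3, across the strand opposite the protein-coding gene Rtl1, to the long non-coding RNA gene Rian. Its members were chosen by name, as every measured arm and copy of 16 numbered miRNAs. The rule itself uses no measured value, but it was set with earlier results of these data known. The table held 32 such names of 1907 in all, and 25 of them had enough counts to be tested. The libraries came from subcutaneous adipose tissue (white fat under the skin) of mice fed a control or a high-fat diet, sampled at day 1, week 1 and week 3, with 4 libraries in each of the 6 diet-by-time groups. The title of the series concerns lower DICER on the high-fat diet, and the design asks which miRNAs differ between diets and over time. The sources used here do not give strain, sex, age or diet composition. The labels also do not say whether the 4 libraries of a group are separate mice. The p-values therefore stand for the spread among these libraries, which may be technical.

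In this domain the non-coding RNAs and the miRNAs on their strand are made from the maternally inherited chromosome, whereas Dlk1, Rtl1 and Dio3 are made from the paternal one. The miRNAs opposite Rtl1 pair perfectly with the Rtl1 messenger RNA and are known to direct its cleavage. Dlk1, at the start of the domain, encodes an inhibitor of adipocyte differentiation that marks preadipocytes. A hairpin is cut by DROSHA and then by DICER into a 5p and a 3p arm, and an arm recognises messenger RNAs chiefly through its seed, the stretch near its 5′ end.

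All 32 names matched an entry of the RefSeq miRNA table for GRCm38.p6, the patched form of the assembly called mm10. The sequences below are the arms opposite or within Rtl1 on which the results turn, shown because they hold most of the counts of the block and because one hairpin there lies on the other strand. Capitals mark the seed, bases 2 to 8 from the 5′ end.
miR-434-5p: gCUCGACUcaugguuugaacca
miR-434-3p: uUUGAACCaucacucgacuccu
miR-127-5p: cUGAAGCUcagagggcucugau
miR-127-3p: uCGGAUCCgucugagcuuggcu
miR-136-5p: aCUCCAUUuguuuugaugaugg
miR-136-3p: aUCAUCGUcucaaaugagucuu
miR-3071-5p: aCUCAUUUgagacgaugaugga
miR-3071-3p: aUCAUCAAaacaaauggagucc
miR-431-3p: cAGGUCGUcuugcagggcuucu
miR-433-3p: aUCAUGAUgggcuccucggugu

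The next sequences lie outside Rtl1 and are shown because they had a small p in a diet comparison, were among the most abundant arms or followed the muscle markers described further on. Capitals again mark bases 2 to 8.
miR-673-5p: cUCACAGCucugguccuuggag
miR-673-3p: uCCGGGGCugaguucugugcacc
miR-493-5p: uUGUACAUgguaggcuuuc
miR-337-5p: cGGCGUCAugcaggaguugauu
miR-341-3p: uCGGUCGAucggucggucggu

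Almost every member had a seed of its own within the block. Among the 32 members, only miR-3070-3p and miR-3070-2-3p, from neighbouring copies, shared a seed. miR-370-5p shared its seed with miR-1193-3p of the distal block of the same domain. Longer stretches recurred within hairpins and between hairpins of the block. The arms of miR-431 both held gucuugcagg and the arms of miR-434 both held uuugaacca, whereas miR-337-5p and miR-431-5p shared cgucaugca. The arms on the 2 strands of the miR-136 locus were complementary. miR-136-5p (chr12:109595331-109595352, plus strand) and miR-3071-3p (chr12:109595329-109595350, minus strand) overlapped by 20 bases, and miR-136-3p (chr12:109595366-109595387) and miR-3071-5p (chr12:109595363-109595384) by 19 bases.

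By position on GRCm38, miR-770 (hairpin chr12:109563692-109563785) lay in an exon of Meg3 (chr12:109541001-109571726, plus strand). The hairpins of miR-673, miR-493, miR-337, miR-540, miR-665 and both copies of miR-3070 lay between Meg3 and Rtl1, in no annotated gene. miR-431, miR-433, miR-127, miR-434 and miR-136 lay on the plus strand, opposite the coding sequence of Rtl1 (chr12:109589193-109600330, minus strand), from the start of the miR-431 hairpin at 109590447 to the end of the miR-136 hairpin at 109595388. The hairpin of miR-3071 lay on the Rtl1 strand, within its coding sequence. miR-341 and miR-370 lay in an intron of Rian (chr12:109603940-109661716, plus strand), and miR-882 (hairpin chr12:109682197-109682273) lay beyond the end of Rian, in no annotated gene.

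The libraries held 1.99 to 16.3 M counts (M, 1000000), and a floor of 3 counts came to 0.186 CPM (counts per 1000000 after TMM scaling) in the deepest and 1.48 CPM in the shallowest library. Intervals and floors cover counting error only. The 6 tested adipocyte-enriched miRNAs had a mean log2 CPM between 10.70 and 11.18 in every library. Skeletal muscle miRNAs varied far more. Of the 8 on the list 6 were tested, with a mean log2 CPM of 1.26 to 11.23. miR-1a-3p, the most abundant of them, ran from 13.1 to 65024 CPM, while miR-1b-5p was at 0 in all 24 libraries and miR-208b-3p in 12. Highest in this list were, on the high-fat diet, replicate 2 of week 1 and replicate 4 of week 3 and, on the control diet, replicate 4 of week 1. The leukocyte list, 12 of 12 tested, had group means of 8.64 in control and 7.72 in high-fat libraries at week 1, and group means from 8.28 to 8.85 at the other times. In bulk tissue, fewer cells of a type and less RNA per cell cannot be told apart.

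The block held a small share of all counts, and most of that share came from the strand opposite Rtl1. The 10 arms opposite Rtl1 made up 88.9% of the 371484 counts of the block. The 13 names between Meg3 and Rtl1 made up 5.55%, the 4 of the Rian intron 4.72%, the 2 on the Rtl1 strand 0.700% and the 2 of Meg3 0.160%. The most abundant members, in descending order with their median CPM over the 24 libraries, were miR-434-5p (829), miR-127-3p (353), miR-136-5p (343), miR-434-3p (212), miR-127-5p (121), miR-136-3p (106), miR-337-5p (85.97) and miR-341-3p (62.7). miR-434-5p ranked at position 79 and miR-127-3p at position 111 by mean CPM among the 1907 names. Mature lengths span 19 to 26 bases, and CPM were not divided by length. The neighbours miR-127-3p and miR-136-5p in this order ranged from 174 to 888 CPM and from 126.7 to 963 CPM, and their ranges overlapped.

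**Figure D1:**
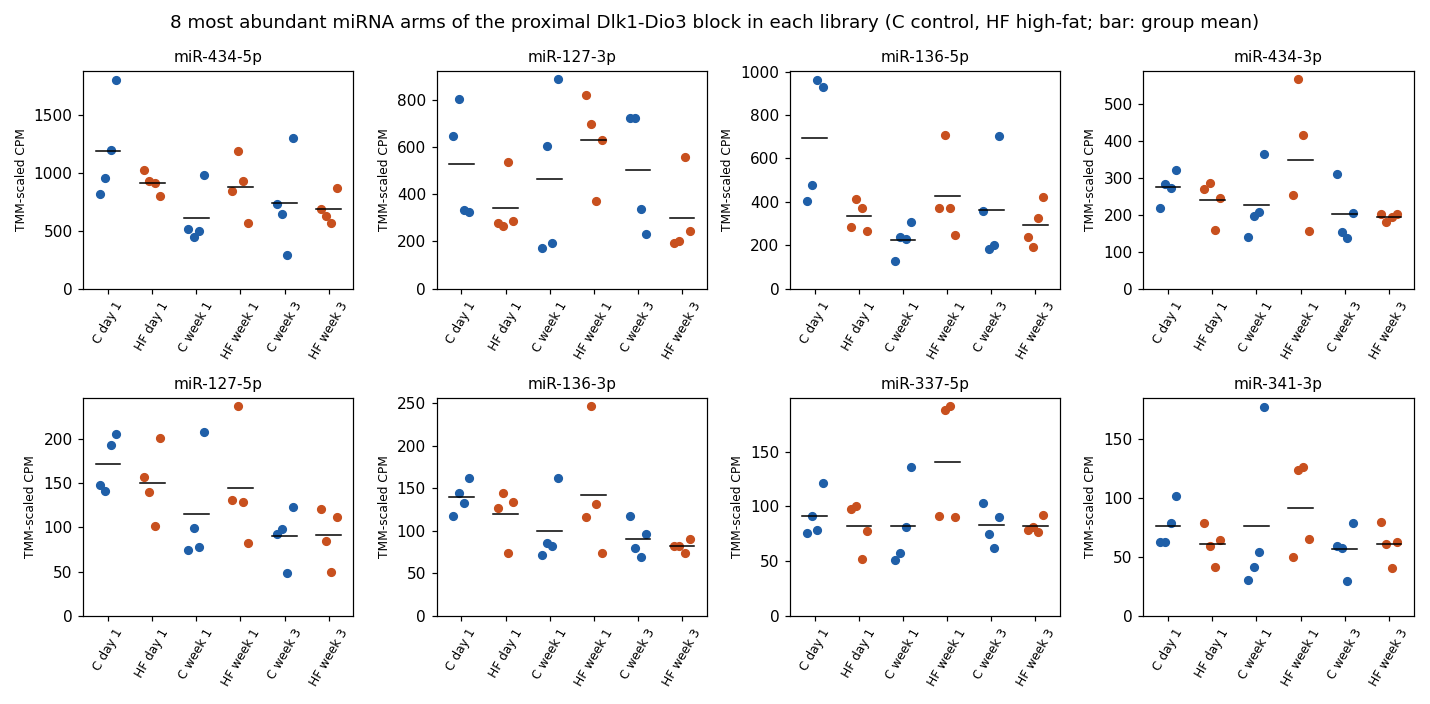
Each panel plots the TMM-scaled CPM of 1 of the 8 most abundant arms (linear vertical axis from 0) in the 24 libraries, by group, with control in blue, high-fat in orange and a bar for the mean of 4 libraries. The miR-136-5p points of the control diet sit between 403 and 963 CPM at day 1 and between 126.7 and 307 CPM at week 1.

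miR-434-5p measured 814, 954, 1195 and 1808 CPM in control replicates 1 to 4 at day 1. It measured 1026, 927, 912 and 797 CPM in the high-fat replicates. The groups overlapped at day 1, and control replicate 4 was the highest of all 24 libraries. At week 1 it measured 516, 449, 502 and 986 CPM on the control diet. The high-fat libraries of week 1 gave 844, 1192, 928 and 567 CPM. Only control replicate 4 lay above any of the high-fat libraries. At week 3 the levels were 728, 644, 289 and 1307 CPM on the control diet and 691, 628, 565 and 867 CPM on the high-fat diet, and the control libraries enclosed the high-fat ones. Its partner arm miR-434-3p averaged 274 ± 42.8 CPM (SD, n = 4) in control and 240 ± 57.2 in high-fat libraries at day 1, 226 ± 96.2 and 348 ± 182 at week 1, and 201 ± 78.5 and 194 ± 9.87 at week 3. miR-341-3p of the Rian intron averaged 76.4 ± 18.2 and 60.7 ± 15.6 CPM at day 1, 75.8 ± 68.3 and 91.2 ± 39.4 at week 1, and 56.2 ± 20.3 and 60.9 ± 16.0 at week 3, again control first. The spread within groups was as large as most of these differences.

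As a share of all counts, the block stood at 0.331% ± 0.0521 (SD, n = 4) in control and 0.245% ± 0.0261 in high-fat libraries at day 1. At week 1 the order was the other way round, with 0.209% ± 0.101 and 0.323% ± 0.119. At week 3 the shares were 0.223% ± 0.0556 and 0.186% ± 0.0279. Within week 1, control replicates 1 to 4 stood at 0.116%, 0.206%, 0.165% and 0.350%, and high-fat replicates at 0.295%, 0.482%, 0.321% and 0.193%. The highest control library was thus above 3 of the 4 high-fat libraries, and the lowest high-fat library was below 2 control libraries.

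At week 1 every tested member had a higher fitted level on the high-fat diet, but no single one passed the test. All 25 log2 fold changes (high-fat over control) were above 0, with a median of 0.53 and a range from 0.03 to 1.46, beside 48.6% above 0 and a median of −0.02 over all 558 tested miRNAs. The 48 tested miRNAs of the distal block of the domain were likewise above 0 in 48 of 48, with a median of 0.61. By position, the medians were 0.60 for the 10 arms opposite Rtl1, 0.51 for the 9 tested between Meg3 and Rtl1, 0.51 for the 2 on the Rtl1 strand, 0.45 for the 3 of the Rian intron and 0.37 for miR-770-3p of Meg3. With the quasi-likelihood test of edgeR and Benjamini-Hochberg adjustment over 558 miRNAs, 0 members and 0 miRNAs in all passed an adjusted p of 0.05. An unadjusted p under 0.05 was reached by 5 members of 25 and by 79 of all 558 (14.2%). DESeq2 called 0 miRNAs and limma-voom 17, none of them a member.

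The member with the smallest p at week 1 was miR-337-5p, which measured 51.4, 57.6, 81.7 and 136.2 CPM in control replicates 1 to 4. The high-fat replicates gave 91.7, 188, 192 and 90.3 CPM. Only control replicate 4 reached into the high-fat range. The log2 fold change was 0.78 (SE 0.30, adjusted p 0.225). miR-3071-3p, on the Rtl1 strand, measured 9.78, 12.7, 10.2 and 17.5 CPM on the control diet and 20.03, 38.0, 19.9 and 9.32 CPM on the high-fat diet. High-fat replicate 4 was the lowest of the 8 libraries and the other 3 were the highest, for a log2 fold change of 0.80 (SE 0.34, adjusted p 0.275). miR-136-5p, which pairs with Rtl1, measured 126.7, 238, 228 and 307 CPM in the control libraries. The high-fat libraries gave 372, 710, 372 and 247 CPM. High-fat replicate 4 lay within the control range and the other 3 above it, and the log2 fold change was 0.92 (SE 0.40, adjusted p 0.298).

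miR-433-3p, also opposite Rtl1, measured 18.1, 14.2, 26.0 and 28.04 CPM in the control libraries of week 1 and 35.1, 33.7, 42.5 and 28.4 CPM in the high-fat libraries. It was the only member whose groups did not overlap at this time, with every high-fat library above every control library. This held for 1 of 25 members and for 0.896% of all tested miRNAs; the opposite order held for 0 members and 1.97%. The log2 fold change was 0.69 (SE 0.33, adjusted p 0.336). miR-673-5p, between Meg3 and Rtl1, measured 2.497, 4.01, 3.40 and 8.93 CPM on the control diet and 5.89, 7.89, 13.6 and 5.09 CPM on the high-fat diet. Control replicate 4 was again the one control library inside the high-fat range, and the log2 fold change was 0.75 (SE 0.36, adjusted p 0.330).

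Single libraries set how many members passed at week 1. Control replicate 4 was the deepest library, the one highest in muscle miRNAs among the control libraries of that time (mean log2 CPM 9.85) and the one lowest in leukocyte miRNAs (7.59). Without it, edgeR called 22 miRNAs, 4 of them members, and the median of the members was 1.04. These were miR-673-5p (1.33, SE 0.34), miR-337-5p (1.20, SE 0.30), miR-337-3p (1.51, SE 0.39) and miR-431-3p (1.30, SE 0.32), each at an adjusted p of 0.0496. Without the 3 libraries highest in muscle miRNAs, of which this is one, 31 miRNAs passed and 2 were members, miR-673-5p (1.32) and miR-431-3p (1.19), both at an adjusted p of 0.0482. With high-fat replicate 2 left out, 20 of 25 members were above 0, with a median of 0.38. With both marker means (muscle, leukocyte) as covariates, 22 of 25 were above 0 and the median was 0.30. The part of muscle and leukocyte RNA in the week 1 difference was not tested beyond these fits. The epithelium list, 10 of 10 tested, differed between the diets in the same direction as the members' median at each time. Its mean log2 CPM was 10.61 in high-fat and 10.13 in control libraries at week 1, 10.18 and 10.37 at day 1, and 9.98 and 10.34 at week 3. Its summed level at week 1 ran from 10128 to 43377 CPM in high-fat and from 14428 to 18544 CPM in control libraries. The part of epithelial RNA in the diet values was not tested.

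**Figure D2:**
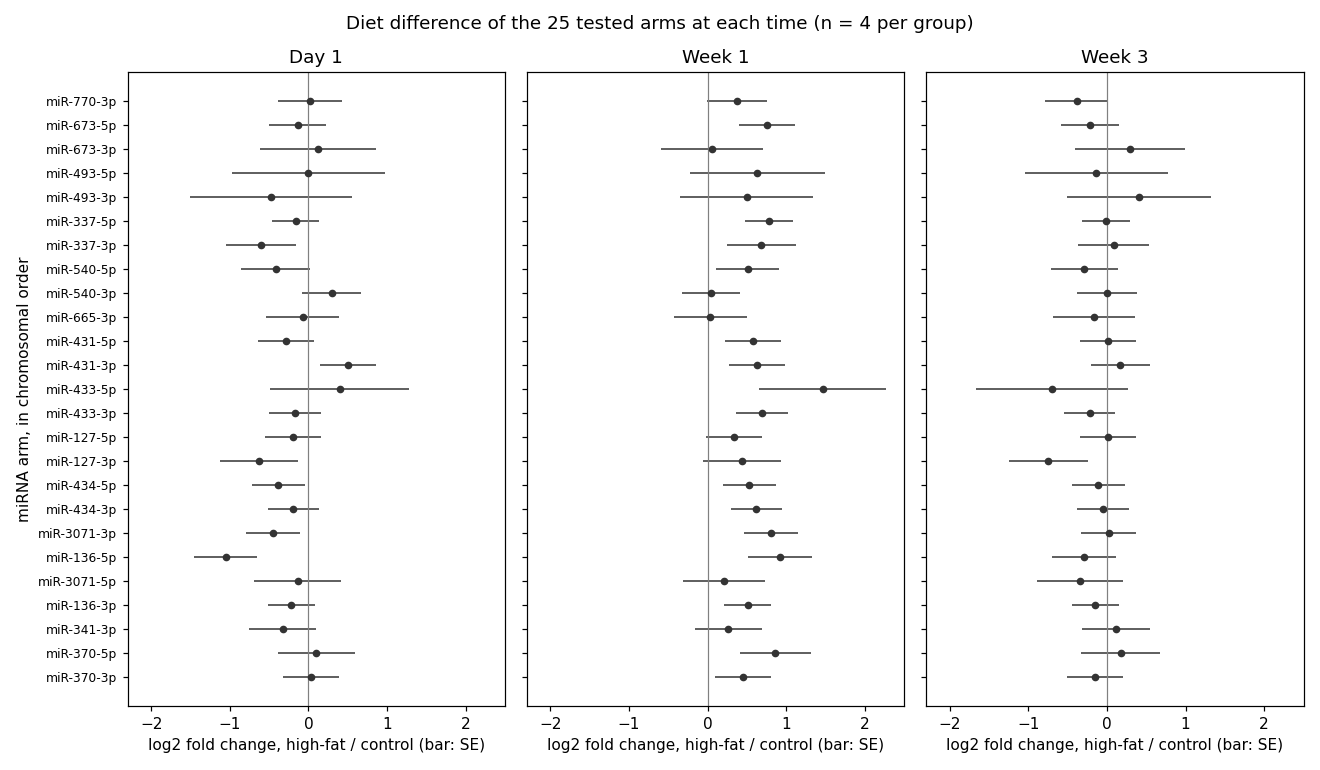
The log2 fold change of high-fat over control (horizontal axis, bar for the SE, 4 libraries in each group) is plotted for the 25 tested arms in chromosomal order at each time. All 25 points lie above 0 at week 1, against 8 at day 1 and 10 at week 3.

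At day 1 most members were fitted lower on the high-fat diet, by small amounts. The fold change was above 0 in 8 of 25 members, with a median of −0.17, beside 48.4% above 0 and a median of −0.01 over all tested miRNAs and a median of −0.12 over the distal block. The edgeR test called 0 of 558 miRNAs. At an unadjusted p under 0.05 it gave 17 miRNAs (3.05%), 1 of them a member. DESeq2 and limma-voom called 0. That member was miR-136-5p, at 403, 480, 963 and 930 CPM in control replicates 1 to 4 and 283, 415, 373 and 267 CPM in the high-fat replicates. Control replicates 3 and 4 were far above the other 6 libraries, and the groups met only where high-fat replicate 2 passed control replicate 1. The log2 fold change was −1.05 (SE 0.40, unadjusted p 0.0169, adjusted p 0.982). miR-337-3p (−0.60, SE 0.45) and miR-3071-3p (−0.45, SE 0.34) had the next smallest p among the members below 0. With both marker means (muscle, leukocyte) as covariates, 13 of 25 members were above 0 and the median was 0.020, so the lean below 0 did not hold there. It did not hold without high-fat replicate 3 either, with 13 of 25 above 0 and a median of 0.0023.

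In the other direction, miR-431-3p measured 3.97, 4.45, 2.09 and 4.77 CPM in the control libraries of day 1 and 5.61, 5.20, 5.15 and 5.92 CPM in the high-fat libraries. All high-fat libraries lay above all control libraries, as in 1 of 25 members and 0.538% of all tested miRNAs (0 members and 1.25% in the opposite order), and the log2 fold change was 0.50 (SE 0.36, adjusted p 0.982). miR-540-3p (0.29, SE 0.37) and miR-433-5p (0.39, SE 0.89) followed. Averaged over the 3 times, miR-431-3p had the smallest p of the members, with a log2 fold change of 0.43 (SE 0.21, unadjusted p 0.0485, adjusted p 0.993). In that average 20 of 25 members were above 0, with a median of 0.10, beside 40.3% and a median of −0.04 over all tested miRNAs. Its sign rested on 1 library, as the median was −0.010 without high-fat week 1 replicate 2, and it was 0.29 without control week 1 replicate 4. At an unadjusted p under 0.05 the average gave 18 miRNAs (3.23%), 1 of them a member, and edgeR, DESeq2 and limma-voom each called 0. miR-370-5p of Rian (0.38, SE 0.28) and miR-337-5p (0.20, SE 0.17) followed among those above 0, and miR-127-3p (−0.31, SE 0.29) had the smallest p among those below.

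At week 3 the diets were close. The fold change was above 0 in 10 of 25 members, with a median of −0.11, beside 41.9% and −0.05 over all tested miRNAs and −0.11 over the distal block. The edgeR test called 0 miRNAs and gave 10 of 558 (1.79%) at an unadjusted p under 0.05, with 0 members among them; DESeq2 and limma-voom called 0. No member had groups that did not overlap, beside 0.358% of all tested miRNAs with every high-fat library higher and 0.717% with every one lower. miR-127-3p, known as a regulator of Bcl6 besides Rtl1, had the smallest p. It measured 725, 721, 336 and 233 CPM on the control diet and 195, 202, 559 and 242 CPM on the high-fat diet. High-fat replicate 3 lay among the control libraries, and control replicate 4 among the high-fat ones. The log2 fold change was −0.75 (SE 0.50, adjusted p 0.999). miR-770-3p of Meg3 (−0.39, SE 0.40) and miR-433-5p (−0.70, SE 0.97) came next, and miR-431-3p, miR-493-3p and miR-673-3p had the smallest p among members above 0. The sign of the last 2 of these 3 depended on high-fat replicate 4. The value of miR-433-5p, with group means of 0.424 CPM on the high-fat and 0.972 CPM on the control diet, was −2.15 without high-fat replicate 3 and −0.066 without control replicate 1. The median of the members was 0.16 without control replicate 4 and −0.24 without control replicate 3.

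Whether the diet difference changed between day 1 and week 1 was tested directly. The difference of the 2 fold changes was above 0 in 23 of 25 members, with a median of 0.81 (18 of 25 and 0.29 with the muscle and leukocyte covariates, and a median of 1.30 without control week 1 replicate 4 or 0.61 without high-fat week 1 replicate 2), beside 50.7% and a median of 0.01 over all tested miRNAs and a median of 0.68 over the distal block. The edgeR test of this difference called 0 of 558 miRNAs, as did DESeq2 and limma-voom. At an unadjusted p under 0.05 it gave 83 miRNAs (14.9%), 3 of them members. miR-136-5p had the largest value, 1.97 (SE 0.57, unadjusted p 0.00238, adjusted p 0.289), followed by miR-3071-3p with 1.25 (SE 0.48, adjusted p 0.289) and miR-337-5p with 0.94 (SE 0.43, adjusted p 0.313). In the joint test over the 3 times, 2 of 25 members and 41 of 558 miRNAs (7.35%) had an unadjusted p under 0.05, and edgeR, DESeq2 and limma-voom each called 0.

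The change over time from day 1 was summarised for each diet. On the control diet 8 of 25 members were higher at week 1 than at day 1, with a median of −0.15, beside 60.4% and a median of 0.10 over all tested miRNAs. The size and the sign of this median rested on single control libraries of week 1, since it was −0.76 without replicate 4 and 0.019 without replicate 1. On the high-fat diet 21 of 25 were higher, with a median of 0.54, beside 56.3% and 0.08. From day 1 to week 3, 7 of 25 were higher on the control diet (median −0.25) and 7 of 25 on the high-fat diet (median −0.18), beside 56.8% and 50.9% of all tested miRNAs. These medians were −0.51 without control week 3 replicate 4 and −0.36 without high-fat week 3 replicate 4. On each diet the comparisons with day 1 share the day 1 libraries. The edgeR test called 0 members in each of these 4 comparisons and 1 (0.179%), 0, 2 (0.358%) and 0 miRNAs in all, in the order named. At an unadjusted p under 0.05 it gave 3, 2, 4 and 1 members, beside 13.6%, 20.6%, 14.9% and 15.8% of all tested miRNAs.

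miR-136-5p came nearest to the threshold over time. On the control diet its 4 libraries of week 1, 126.7 to 307 CPM, all lay below its 4 libraries of day 1, 403 to 963 CPM. Among the members this was the only one without overlap, 1 of 25, and 2.33% of all tested miRNAs showed this order; 0 members and 4.84% showed the opposite one. The log2 fold change was −1.63 (SE 0.40, edgeR adjusted p 0.129). DESeq2 called it (−1.65, adjusted p 0.0147), and limma-voom called it (−1.68, adjusted p 0.0159) together with miR-434-5p (−1.14, adjusted p 0.0216). Most of the miRNAs that either method called here were not members, and the totals over all tested miRNAs are given below by setting. Without control week 3 replicate 4 the edgeR adjusted p was 0.0324, and without control week 1 replicate 4 it was 0.0472, with miR-434-5p at the same adjusted p and a fold change of −1.36. On the high-fat diet the values of miR-136-5p at day 1 and week 1 were 267 to 415 CPM and 247 to 710 CPM, and they overlapped.

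At week 3 on the control diet, miR-127-5p was the member without overlap, 1 of 25 beside 3.76% of all tested miRNAs, and 0 members beside 3.76% lay in the opposite order. It measured 148, 141, 193 and 205 CPM in the 4 control libraries of day 1. At week 3 they gave 92.7, 97.7, 48.2 and 122 CPM. Every library of week 3 lay below every one of day 1, with a log2 fold change of −0.93 (SE 0.36, adjusted p 0.249). With high-fat feeding miR-431-3p had this order, at 5.15 to 5.92 CPM at day 1 and 2.92 to 4.31 CPM at week 3, as in 1 of 25 members and 4.3% of all tested miRNAs (log2 fold change −0.73, SE 0.37, adjusted p 0.325). The opposite order held for 0 members and 7.35%. From day 1 to week 1 on the high-fat diet, 0 members were without overlap, beside 3.41% of all tested miRNAs higher and 5.73% lower. Once the muscle and leukocyte means entered as covariates, 4 members passed at week 3 on the control diet, miR-3071-3p (−1.30), miR-127-5p (−1.22), miR-136-3p (−0.97) and miR-434-3p (−0.92), with adjusted p from 0.0168 to 0.0353. On the high-fat diet miR-136-3p (−1.06) and miR-434-3p (−0.95) then passed, at 0.0251 and 0.0269. By limma-voom 1 member passed in each of 2 comparisons. These were miR-3071-3p at week 3 on the control diet (−1.27, adjusted p 0.0322) and miR-540-5p at week 1 on the high-fat diet (1.26, adjusted p 0.0499). For these edgeR gave −0.94 (SE 0.34, adjusted p 0.205) and 1.23 (SE 0.44, adjusted p 0.138). In the covariate fit and by limma-voom, most of the miRNAs that passed in each comparison were not members. The totals over all tested miRNAs are given below by setting. miR-665-3p, between Meg3 and Rtl1, had similar values on both diets at week 3, −0.98 (SE 0.47, adjusted p 0.330) on the control and −1.08 (SE 0.51, adjusted p 0.304) on the high-fat diet.

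Most members varied together from library to library within the groups, and 2 of them stood apart. After the group means were removed from the log2 CPM, the median Pearson r over the 300 pairs of tested members was 0.53, and 286 pairs were above 0. The libraries share depth and tissue makeup, so these values are a description. No such values were computed for pairs of the distal block or of all tested miRNAs. The closest pairs were miR-434-3p with miR-136-3p (0.94), miR-337-5p with miR-434-3p (0.90) and miR-770-3p with miR-540-3p (0.89), the last from either side of the Meg3 end. miR-341-3p of Rian had the highest median r with the other members, 0.70. miR-127-3p, although the second most abundant member, had a median of 0.03, whereas its partner arm miR-127-5p had 0.59. miR-3071-5p, at a mean of 2.51 CPM, had 0.06. Within groups, the SD of log2 CPM had a median of 0.54 over the members, 0.47 over the distal block and 0.43 over all tested miRNAs.

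**Figure D3:**
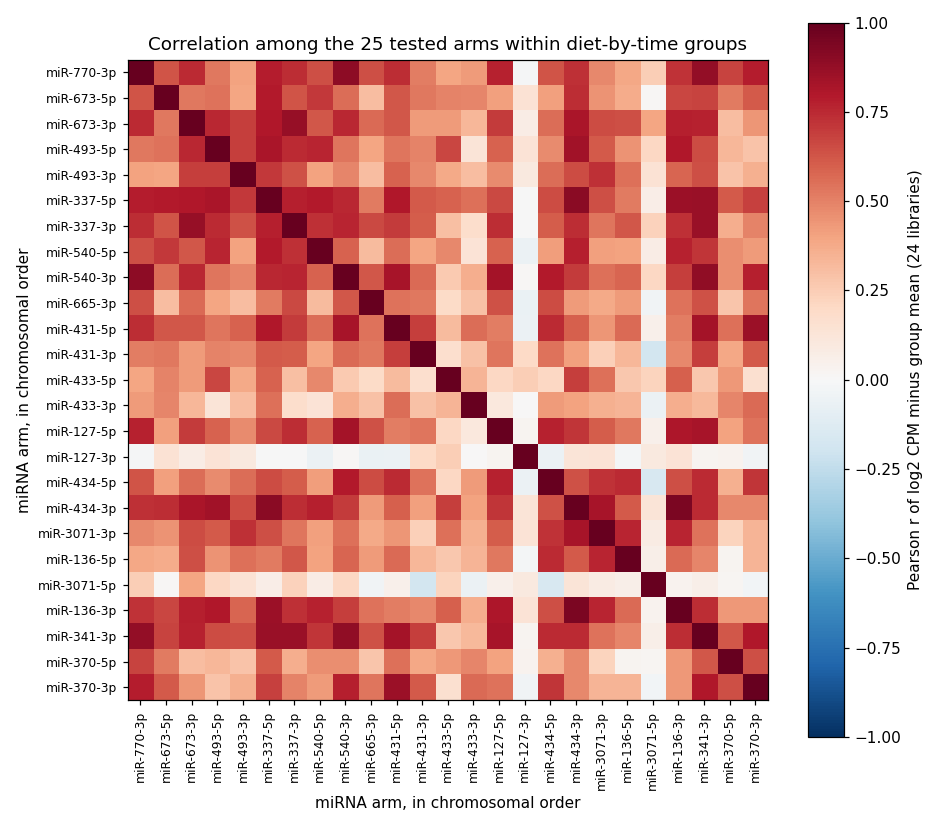
Each cell gives the Pearson r of log2 CPM minus the group mean over 24 libraries (colour scale from −1 to 1) for a pair of the 25 tested arms, in chromosomal order on both axes. The pale row and column of miR-127-3p (median r 0.03) and of miR-3071-5p (0.06) cross a block that is otherwise mostly red (median over all pairs 0.53).

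The arms of a hairpin come from 1 precursor, and their ratio within a library does not depend on scaling. For 11 hairpins both arms were tested. The 5p arm had more counts in all 24 libraries for miR-493, miR-337, miR-431, miR-434 and miR-136, and the 3p arm in all 24 for miR-540, miR-433, miR-127, miR-3071 and miR-370. miR-673 was mixed, with more 5p in 20 libraries and more 3p in 3. The log2 ratio of 5p to 3p averaged 1.75 for miR-434, 1.69 for miR-136 and −1.78 for miR-127. No ratio differed between the diets past the threshold in an exact two-sided permutation test within times (343000 regroupings, adjusted over 11 hairpins). The smallest p was that of miR-431, with a mean difference of −0.39 (high-fat minus control) and a permutation p of 0.0335, adjusted 0.368. At day 1 its ratio was 3.10, 2.82, 4.21 and 3.65 in control and 2.70, 2.85, 2.65 and 2.25 in high-fat libraries, and the groups overlapped only by high-fat replicate 2 and control replicate 2.

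The miR-127 ratio varied most relative to its counting error. It ran from −3.51 to −0.50, an 8.02-fold range, with a pooled SD within groups of 0.92, against 0.072 from counting alone. For miR-434 these SDs were 0.43 and 0.051, and for miR-136 they were 0.51 and 0.076. For miR-433 the pooled SD was larger, at 1.43, against 1.00 from counting alone. At day 1 the miR-127 ratio was −2.13, −2.51, −0.78 and −0.66 in control replicates 1 to 4 and −0.82, −0.92, −2.40 and −0.50 in high-fat replicates. Both groups thus held libraries at −2.13 or below and libraries at −0.92 or above, and the groups overlapped. At week 3 control replicates gave −2.97, −2.88, −2.80 and −0.93, and high-fat replicates −0.69, −1.26, −3.51 and −1.12. Here 1 library of each diet stood apart from the other 3, in opposite directions. The mean difference between the diets was 0.25, with an exact permutation p of 0.498 (adjusted 0.985).

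Among 15 relations of 5 arm ratios with one another and with the muscle list over the 24 libraries, 2 had an adjusted p under 0.05 by Pearson r. The miR-434 and miR-136 ratios gave r = 0.55 (permutation p 0.00481, adjusted 0.0361) and rho = 0.45 (permutation p 0.0288, adjusted 0.216), with r = 0.49 within groups and r = 0.37 without the 2 libraries farthest from the median. The miR-434 ratio and the muscle list gave r = −0.56 (permutation p 0.0045, adjusted 0.0361) and rho = −0.58 (permutation p 0.00384, adjusted 0.0576), with r = −0.48 within groups and r = −0.54 without the 2 farthest libraries. Neither passed by both measures. The miR-127 ratio had r = 0.00 with the muscle list (permutation p 0.996, adjusted 0.996; rho = −0.08, permutation p 0.722).

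**Figure D4:**
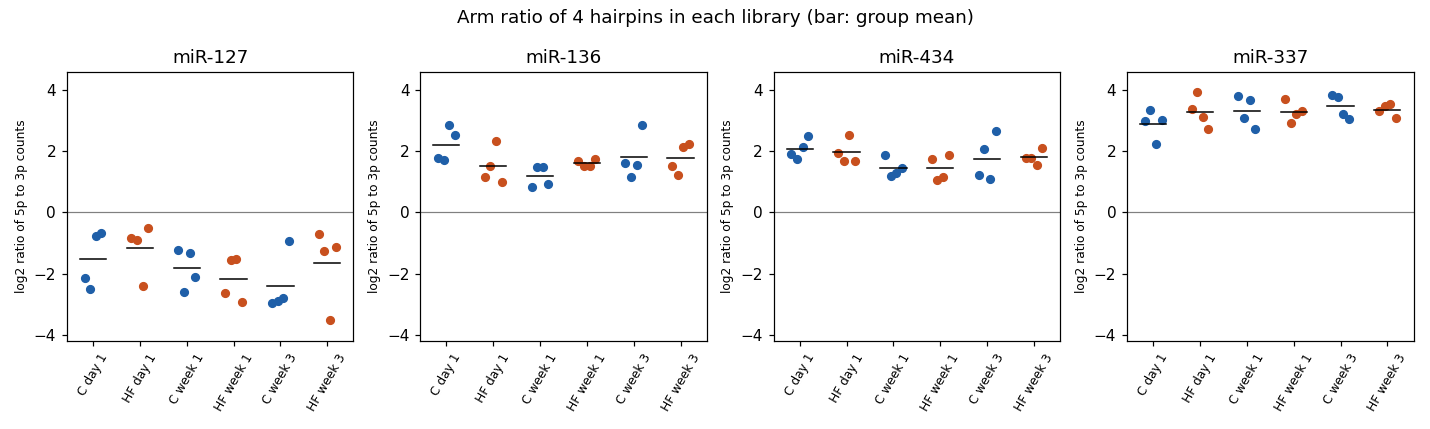
The log2 ratio of 5p to 3p counts (vertical axis, the same scale in all panels) is plotted for 4 hairpins in each library by group, control in blue and high-fat in orange, with a bar for the mean of 4 libraries. miR-127 lies below 0 in all 24 libraries and spreads from −3.51 to −0.50, while miR-136, miR-434 and miR-337 lie above 0 throughout.

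On the 2 strands of the miR-136 locus the plus strand held far more counts. miR-136-5p had 54937 counts over all libraries and the overlapping miR-3071-3p had 2228, a ratio of 24.7. For miR-136-3p and miR-3071-5p the counts were 16426 and 371, a ratio of 44.3. The log2 ratio of the first pair ran from 3.68 to 5.70 over the libraries, and that of the second from 4.18 to 7.81. Within groups, miR-3071-3p followed both miR-136 arms (r = 0.76 with each), whereas miR-3071-5p followed neither (r = 0.06 with miR-136-5p and 0.04 with miR-136-3p). These values were not particular to the locus. miR-3071-3p had a higher r with miR-434-3p (0.82) and a median of 0.54 with the other members. For miR-3071-5p that median was 0.06. The sources used here do not say whether counting used the strand, and without it reads from these overlapping arms cannot be told apart.

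Some members followed the muscle markers closely. Relations of the 25 tested members with 3 marker lists were computed over the 24 libraries, 75 in all, with permutation p adjusted over the 75. The permutations ran over all 24 libraries without regard to group, so these p-values also take in differences between the groups. miR-493-5p measured from 1.14 to 38.6 CPM, with a median of 4.08, and had r = 0.85 with the muscle list (permutation p 2e-05, adjusted 0.0015) and rho = 0.93 (permutation p 1e-05, the smallest that 100000 permutations can give, adjusted 0.00075). Its r was 0.89 within groups and 0.88 without the 2 farthest libraries. miR-673-3p had r = 0.73 (permutation p 7e-05, adjusted 0.00262), rho = 0.73 (permutation p 9e-05, adjusted 0.00225), r = 0.77 within groups and r = 0.73 without the 2 farthest. miR-493-3p had r = 0.60 (permutation p 0.00197, adjusted 0.0185), rho = 0.65 (permutation p 0.0009, adjusted 0.0138), r = 0.55 within groups and r = 0.66 without the 2 farthest. These 3 were the members that passed, and they come from the hairpins of miR-493 and miR-673, between Meg3 and Rtl1. The other tested arms of that stretch did not pass, with r from 0.06 (miR-665-3p) to 0.51 (miR-540-5p). Among them was miR-673-5p, the partner arm of miR-673-3p, with r = 0.09 (permutation p 0.688, adjusted 0.884) and r = 0.35 within groups.

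The other members followed the muscle list less closely over all libraries. Of 25 members, 22 had r above 0, with a median of 0.22, beside 30 of 48 and 0.13 in the distal block and 257 of 552 and −0.02 among all tested miRNAs outside the list. Within groups the median over the members was 0.51. There some arms that did not pass had a higher r than miR-493-3p (0.55). They were miR-434-3p (0.73), miR-136-3p (0.69), miR-337-3p (0.67), miR-337-5p (0.67), miR-433-5p (0.60) and miR-540-5p (0.58). The rest of the arms that did not pass had a lower r. miR-434-3p and miR-434-5p, from the same hairpin, had r = 0.41 (permutation p 0.0487, adjusted 0.159; rho = 0.32, permutation p 0.127) and r = −0.08 (permutation p 0.716, adjusted 0.884; rho = −0.08, permutation p 0.704), and within groups 0.73 and 0.30. With the leukocyte list all 25 members had r below 0, with a median of −0.40, beside 48 of 48 and −0.45 in the distal block and −0.10 over all tested miRNAs outside that list. Of those 546 miRNAs, 228 had r above 0. By Pearson r 7 members passed, and 6 of them by rho as well. For all marker lists, permutation p-values were computed for the members alone. The share of all tested miRNAs that would pass is therefore not known. miR-337-5p had the lowest value, r = −0.66 (permutation p 0.00062, adjusted 0.0155; rho = −0.75, permutation p 5e-05, adjusted 0.00187), with r = −0.55 within groups and −0.58 without the 2 farthest. The shares of counts sum to a fixed total, and the part of this in these relations was not tested. With the stroma and fibroblast list only miR-370-3p passed, with r = 0.61 (permutation p 0.00161, adjusted 0.0185; rho = 0.56, permutation p 0.00542, adjusted 0.0406), r = 0.65 within groups and r = 0.53 without the 2 farthest.

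**Figure D5:**
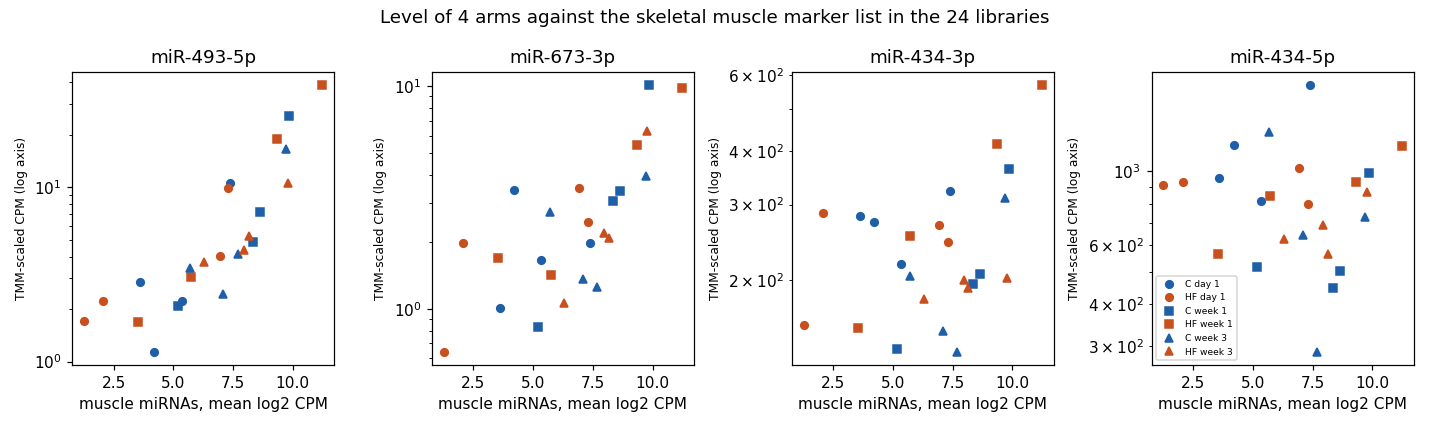
The TMM-scaled CPM of 4 arms (vertical log axis) is plotted against the skeletal muscle list (horizontal axis, mean log2 CPM) in the 24 libraries, with colour for diet and symbol for time. miR-493-5p climbs along the whole axis (r = 0.85) and miR-673-3p does so less closely (0.73), while miR-434-5p shows no such slope (−0.08).

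The 7 members that were not tested were at or near the floor. miR-3070-5p, miR-3070-2-3p and miR-882 had 0 counts in all 24 libraries. For miR-3070-2-3p and miR-882 this allows at most 3 counts in each, or 0.186 CPM in the deepest library. The sequence of miR-3070-5p is the same in both copies of its hairpin, and the treatment of reads with several matches is not given. No upper limit is therefore set for miR-3070-5p. miR-665-5p had 2 counts in all, miR-3070-3p 11, miR-770-5p 46 and miR-341-5p 104. The partner arms of 3 of them passed the filter, with mean levels of 2.64 CPM for miR-665-3p, 3.60 CPM for miR-770-3p and 70.2 CPM for miR-341-3p. No fold change is given for these 7.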

How the data were processed

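Per the labels' protocols, RNA was taken from the fat with TRIzol and made into libraries with a NEBNext kit for small RNA. The deposited table held the authors' raw counts of reads per mature miRNA name, 1 column for each of 24 libraries. FastQC, Trim Galore, Bowtie2, featureCounts and the build mm10 are named in the submitters' processing notes; versions, strand and treatment of reads with several matches: not given in the sources used here. The filter filterByExpr (minimum count 10, minimum total 15) kept 558 of 1907 names, and the 1349 left out held 0.0179% of counts.

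Counts were fitted in R 4.3.3 by edgeR 4.0.16, whose quasi-likelihood test was used (TMM, robust, 1 cell-means model of 6 groups, biological coefficient of variation 0.359), with Benjamini-Hochberg adjustment over all 558 and a threshold of 0.05. Arm ratios used a pseudocount of 0.5 and exact permutation. DESeq2 1.42.0 and limma 3.58.1 (voom with quality weights) were alternatives, with other scalings, filters, covariates, a replicate block and each library left out. The fit was tested on simulated data. No 2 libraries of a group matched within sampling noise (lowest chi-square per degree of freedom 155 over 36 pairs). Named members were the 8 most abundant, any past the threshold, and, for each diet comparison, the 3 of smallest p above 0 and below 0; others are named by position, strand or marker relation, or after their values were seen (those with an unadjusted p under 0.05, with groups that did not overlap or called in an alternative). Positions come from GENCODE vM21 (GRCm38) and RefSeq. Members, lists and rules were chosen with earlier results of these data known.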

Additional observations from a re-analysis of the deposited data

Results flagged for a closer look

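Among 114 groups of 4 values checked (the most abundant or named members and the arm ratios, in each diet-by-time group), 3 held a value far from the other 3 by Dixon's ratio; chance alone gives about 1 in 20. In the high-fat libraries of day 1, miR-127-3p was at 535 CPM in replicate 3, and the other 3 libraries were at 264 to 286 CPM. In the control libraries of week 3, the miR-127 log2 ratio of 5p to 3p was −0.93 in replicate 4, against −2.97 to −2.80 in the other 3. In the control libraries of week 1, the miR-493 log2 ratio was 2.20 in replicate 3, against 1.58 to 1.68. The miR-493 ratio rests on low 3p counts, with a pooled SD within groups of 1.11 and 0.75 from counting alone. For miR-127 the counting SD was 0.072.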

How the results depend on the processing

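For the diet comparisons at day 1 and week 3, the mean over times, the joint test, the diet effect at week 1 minus day 1 and the arm ratios, every alternative run gave 0 calls except leaving out single libraries for the mean over times (0 to 2, the 2 without high-fat week 3 replicate 2). For high-fat against control, week 1 (0 calls), limma-voom gave 17, the fit without the 3 libraries highest in muscle markers 31 (2 members), and leaving out single libraries 0 to 22 (members 0 to 4; all from leaving out control week 1 replicate 4). For week 1 against day 1, control (1 call), no low-count filter and the fit of only the groups compared gave 0, DESeq2 9 (1 member), limma-voom 22 (2 members), the replicate block 2, the fit without the 3 libraries 2, and single libraries 0 to 13 (members 0 to 2; 13 without control week 1 replicate 4, 0 without control day 1 replicate 2 or 3). For week 3 against day 1, control (2 calls), no filter, only the groups compared and the replicate block gave 0, a mean CPM of at least 10 gave 1, DESeq2 6, limma-voom 4 (1 member), the muscle and leukocyte covariates 15 (4 members), and single libraries 0 to 4 (4 without control day 1 replicate 1, 0 without control day 1 replicate 2 or 3 or control week 3 replicate 1 or 2). For week 1 against day 1, high-fat (0 calls), DESeq2 gave 23, limma-voom 44 (1 member), the fit without the 3 libraries 9, and single libraries 0 to 4 (4 without high-fat week 1 replicate 2). For week 3 against day 1, high-fat (0 calls), no filter gave 1, a mean CPM of at least 10 gave 3, DESeq2 11, limma-voom 14, the covariates 9 (2 members), the fit without the 3 libraries 1, only the groups compared 1, and single libraries 0 to 3 (3 without control week 3 replicate 1 or high-fat week 1 replicate 4). The fits without a filter tested 1467 miRNAs and those at a mean CPM of at least 10 tested 359; for the other settings the cause was not tested.

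The labels do not say whether replicate numbers pair the samples, and the main fit did not use them. The correlation of same-numbered libraries ran from −0.51 to 0.45. Control replicate 2 matched its same-numbered high-fat library best at every time and replicate 3 at day 1 and week 1. Replicates 1 and 4 did so at no time. As a replicate block the numbers left the diet comparisons at 0 calls.

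Some small values of single members turned. For high-fat against control, day 1, miR-337-5p (−0.16) and miR-434-3p (−0.19) were 0.044 and 0.020 with the covariates; leaving out single libraries took miR-337-5p from −0.25 to 0.026 and miR-433-5p from −0.032 to 0.80. In the mean of 3 times, miR-3071-5p was 0.25 with limma-voom and −0.18 to 0.045 without single libraries, and miR-136-5p −0.25 to 0.088. For high-fat against control, week 3, without the 3 libraries miR-493-3p was −0.42 and miR-673-3p −0.29, and without single libraries they ran from −0.39 to 1.07 and from −0.28 to 0.70. At week 1 leaving out single libraries left 20 to 25 members above 0. At day 1 it left 4 to 13, and at week 3 it left 4 to 16. Depth limits members near 1 CPM, such as miR-433-5p and miR-370-5p.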
